A study of Mus musculus with 11 samples.

Results

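The expression of 10 genes of the Toll-like receptor (TLR) and interleukin-1 (IL-1) receptor signaling chain was examined in 11 mouse pancreatic tumors, out of 54232 genes in the count table and 16536 that were tested. The genes are the receptors Tlr2 and Tlr4, the adaptor Myd88, the kinases Irak4, Irak1 and Irak2, the kinase-like inhibitor Irak3, the ubiquitin ligase Traf6, and the inhibitors Tollip and Tnfaip3. Irak3 was chosen by its rise in the tumors of PKN2 KO hosts, so its difference between the groups is given as a description without a test. The other 9 were added because they belong to the same chain, and all 10 passed the filter on low counts.

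Tumors were grown by implanting 1000 TB32048 cells, a mouse pancreatic carcinoma line, into the pancreas of C57BL/6 mice. The hosts were sex- and age-matched adult females. All of them carried Rosa26-CreERT2, a tamoxifen-inducible Cre recombinase that is expressed throughout the body, and all received tamoxifen. KO hosts (PKN2 KO, n = 6 tumors, A to F) carried floxed Pkn2 alleles and WT hosts (PKN2 WT, n = 5, A to E) carried normal Pkn2 alleles, so the deletion was systemic in the host and not limited to 1 stromal cell type. The implanted cells kept intact Pkn2 in both groups, and their RNA is part of each bulk sample. Whole-gene Pkn2 counts were 96.6 ± 9.34 CPM (read counts scaled to equal library totals) in KO and 96.7 ± 34.6 CPM in WT tumors (mean ± SD), which does not check the host genotype. The genotype rests on the labels.

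TLRs recognize microbial products and molecules released by damaged cells, and share with the IL-1 receptors an intracellular domain that recruits the adaptor MYD88. MYD88 assembles IRAK4, IRAK1 and IRAK2, which engage TRAF6 and, through the TAK1 and IKK kinases, free NF-kappaB to switch on inflammatory genes. IRAK3, also called IRAK-M, lacks strong kinase activity, is found mainly in monocytes and macrophages, and is known as a brake on this chain during tolerance to endotoxin. TOLLIP and the ubiquitin-editing enzyme A20, encoded by Tnfaip3, are other brakes, and Tnfaip3 and Tlr2 are known NF-kappaB target genes.

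The sequences before the start sites of Irak3, Tnfaip3 and Tlr2 are shown because Irak3 carries the difference between the groups and the other 2 are known NF-kappaB targets. They come from RefSeq on GRCm38.p6, all are on the minus strand, and capitals mark matches to the NF-kappaB consensus. The 250 bases before each start were searched on both strands, and overlapping matches were merged. Both Tnfaip3 stretches lie before a RefSeq start but inside the span of the gene given below, and overlap no annotated exon.
Irak3, chr10:120202196-120202380, upstream of the annotated exons: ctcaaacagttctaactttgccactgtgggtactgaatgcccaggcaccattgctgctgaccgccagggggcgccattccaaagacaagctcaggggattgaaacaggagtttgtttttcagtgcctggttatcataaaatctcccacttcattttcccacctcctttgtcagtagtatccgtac
Tnfaip3, chr10:19015516-19015545: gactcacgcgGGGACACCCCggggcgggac
Tnfaip3, chr10:19015411-19015440: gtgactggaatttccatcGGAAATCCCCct
Tlr2, chr3:83841762-83841791, overlapping an annotated exon: taggacacctGGGGAATTCCCacacggagc
Of the 9 members with a window in the table, 3 held the consensus, namely Tnfaip3, Tlr2 and Irak1, against 8.23% of all gene symbols with a window. Neither of the 2 Irak3 windows held it. A match is a description of letters and does not show that the factor binds there.

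Sequencing depth ranged from 22791627 to 28017673 counts in KO and from 16294128 to 31121422 counts in WT tumors, so that 3 counts correspond to between 0.0964 and 0.184 CPM. The WT libraries A, B and C stood apart from the rest. Ribosomal RNA took 1.31%, 6.39% and 1.40% of their counts, against at most 0.765% in the other 8 libraries. In each library, the deviation of each gene's log2 CPM from its mean over all libraries was correlated with exon length. This correlation (Spearman, across genes, which are not independent) was -0.50, -0.45 and -0.17 in these 3 libraries and between 0.10 and 0.37 in the others. The deviations are relative to a shared mean, so the values of the libraries depend on each other. For every member, and for some other genes whose lowest or highest levels lay in these libraries, values of each WT tumor are given. Other named genes with such levels are given as summaries only. Among these, Tlr1 was lowest in WT C (12.3 CPM). In WT B, Tbk1 (24.7 CPM), Icam1 (47.6 CPM) and Cyld (40.6 CPM) were lowest and Nfkbiz (101 CPM) was highest. The part of RNA quality in the differences of these genes was not tested.

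Irak3 was the only one of the 10 genes whose levels in the KO and WT tumors did not overlap. Irak3 (ENSMUSG00000020227, GRCm38 chromosome 10, 120141648 to 120202130, minus strand) was measured at 9.55, 11.3, 8.40, 12.2 and 10.9 CPM in WT tumors A to E. In the KO tumors its lowest, median and highest levels were 19.3, 23.3 and 26.0 CPM. Every KO tumor therefore lay above every WT tumor, and the 3 WT libraries that stood apart were not set off from WT D and E for this gene. The raw counts behind these levels ran from 135 in WT B to 702 in KO C. The edgeR log2 fold change of KO over WT was 1.14 (SE 0.16), a ratio of 2.20. Over 19 other processing settings, 11 of which left out 1 tumor each, this log2 fold change stayed between 1.07 and 1.21. Among all 16536 tested genes, 1.59% had every KO tumor above every WT tumor and 2.01% had every KO tumor below, a share that is given as background only because the same contrast chose Irak3.

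**Figure D1:**
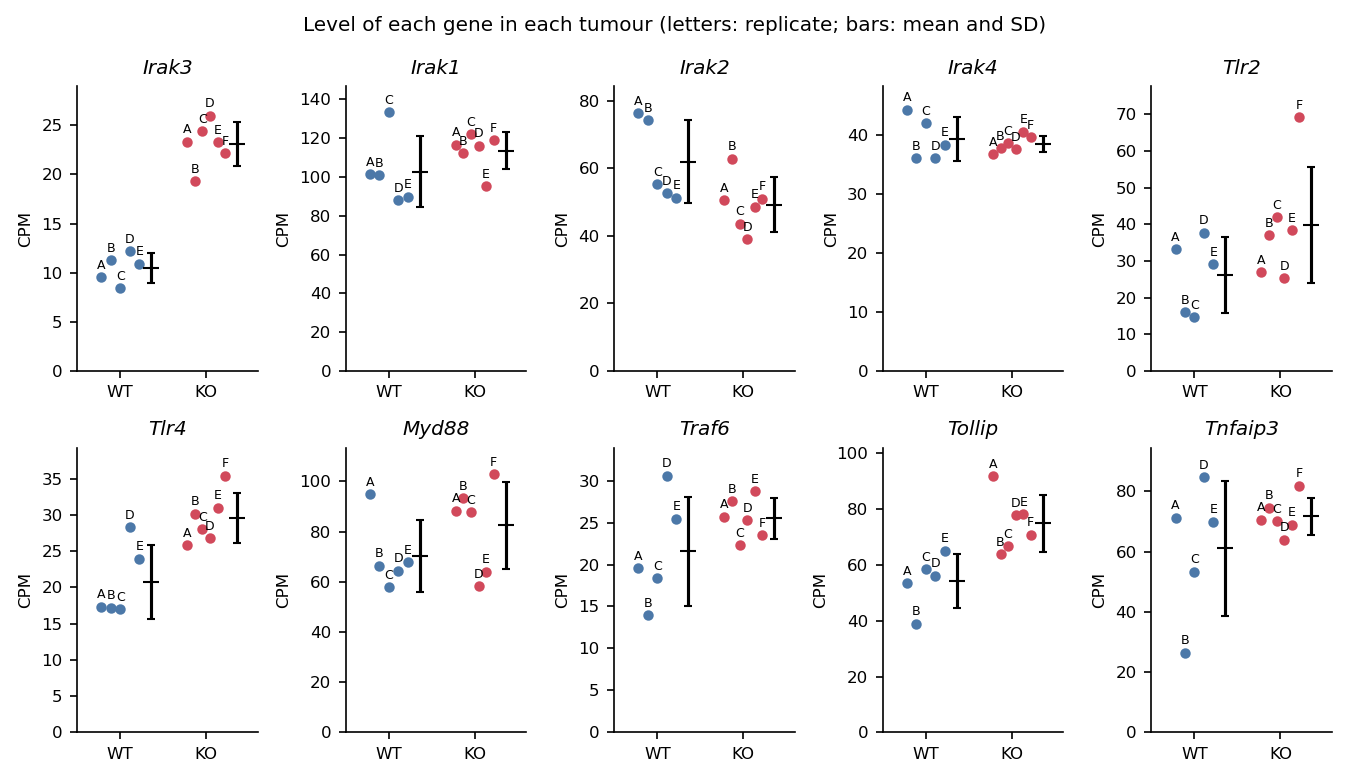
Level of each of the 10 genes in CPM (y axis, from 0) in each WT (blue) and KO (red) tumor; letters give the replicate, and bars give the mean and SD (WT n = 5, KO n = 6). Irak3 lies between 8.40 and 12.2 CPM in WT and between 19.3 and 26.0 CPM in KO tumors, while the groups overlap for every other gene.

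Exons of Irak3 overlap those of Tmbim4, a gene on the opposite strand, over 192 bases. KO tumors had 93.9 ± 13.2 CPM of Tmbim4 and WT tumors 93.5 ± 35.6 CPM, which overlapped (log2 fold change 0.01, SE 0.24). Exons of Irak4 and Myd88 also overlap opposite-strand genes, Twf1 over 395 bases and Acaa1a over 290 bases. The alignment was strand-specific, and the strand setting of the counting step is not given in the sources used here.

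The levels of the other kinases of the family overlapped between the groups. Irak4 (chromosome 15, 94543643 to 94581815, plus strand), which sits at the head of the kinase cascade, was at 44.2, 36.0, 41.9, 36.0 and 38.3 CPM in WT tumors A to E. Its levels in KO tumors were 36.7, 38.1 and 40.5 CPM (lowest, median, highest), inside the WT range. The log2 fold change of Irak4 was -0.03 (SE 0.12, edgeR quasi-likelihood test, Benjamini-Hochberg adjusted p = 0.890), and its sign changed in 2 of the other settings.

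Irak1 (chromosome X, 74013914 to 74023918, minus strand), the kinase that hands the signal to TRAF6, was measured at 101, 101, 134, 88.1 and 89.9 CPM in WT tumors A to E. It was at 95.4, 116 and 122 CPM (lowest, median, highest) in KO tumors, which overlap the WT tumors. Its log2 fold change was 0.14 (SE 0.14, edgeR adjusted p = 0.548), and 0.26 without WT C. Exons of Irak1 also overlap the microRNA genes Mir718 and Mir5132 on the same strand, with which it can share reads.

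Irak2 (chromosome 6, 113638467 to 113695026, plus strand), a family member that sustains later TRAF6 signaling, had a lower mean in KO tumors. Its levels were 76.3, 74.3, 55.3, 52.7 and 51.3 CPM in WT tumors A to E. The KO tumors lay at 39.0, 49.6 and 62.8 CPM (lowest, median, highest). WT A and B, both among the libraries that stood apart, were above every KO tumor, and the other 3 WT tumors lay inside the KO range. The log2 fold change of -0.33 (SE 0.17) did not pass the test (edgeR adjusted p = 0.241). Without WT A and B it was -0.11 (SE 0.15, edgeR adjusted p = 0.774).

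Irak3 was also set against the other members within each tumor. Per 1000 CPM of Irak4, Irak3 stood at 602 ± 64.6 CPM in KO tumors against 271 ± 60.6 CPM in WT. Per 1000 CPM of Irak2, it stood at 484 ± 121 and 175 ± 45.3 CPM, and per 1000 CPM of Irak1 at 204 ± 25.9 and 106 ± 28.9 CPM. For these 3 kinases and for Myd88, the ratio was higher in each of the 6 KO tumors than in any WT tumor. For Traf6, Tollip, Tlr4, Tlr2 and Tnfaip3 the ratios overlapped, and the KO mean was 1.44 to 1.77 times the WT mean. These ratios share their numerator with the value that chose Irak3 and are given without a test.

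Both receptors had higher means in KO tumors, without passing the adjusted threshold. Tlr4 (chromosome 4, 66827584 to 66930284, plus strand), the receptor for bacterial lipopolysaccharide, was at 17.3, 17.2, 17.0, 28.3 and 23.9 CPM in WT tumors A to E. Its levels in KO tumors were 25.8, 29.1 and 35.4 CPM (lowest, median, highest). The 3 low WT values are those of the libraries that stood apart, WT D lay inside the KO range, and WT E lay just below it. The estimated log2 fold change was 0.51 (SE 0.18, unadjusted p = 0.0132, edgeR adjusted p = 0.125). Without WT D it was 0.65 and passed (edgeR adjusted p = 0.0481), and with ribosomal RNA content as a covariate it was 0.32 (edgeR adjusted p = 0.647). The part of RNA quality in this difference was not tested.

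Tlr2 (chromosome 3, 83836272 to 83841767, minus strand), which recognizes bacterial lipoproteins together with TLR1 or TLR6, was at 33.1, 15.9, 14.6, 37.7 and 29.1 CPM in WT tumors A to E. In KO tumors it was at 25.2, 37.6 and 69.2 CPM (lowest, median, highest), the highest in KO F. Only WT B and C were below the KO tumors, and 3 KO tumors were above every WT tumor. For Tlr2 the log2 fold change of 0.60 (SE 0.31) did not pass the test (edgeR adjusted p = 0.251). It was 0.24 with ribosomal RNA content as a covariate and 0.37 without KO F.

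The adaptor and the ubiquitin ligase overlapped between the groups. Myd88 (chromosome 9, 119335934 to 119341411, minus strand), the adaptor shared by most TLRs and the IL-1 receptors, was at 95.0, 66.5, 57.9, 64.5 and 67.9 CPM in WT tumors A to E. The KO tumors were at 58.4, 88.1 and 103 CPM (lowest, median, highest), with KO D and E among the lower WT values, KO A, B and C between WT A and the other WT tumors, and KO F above them all. For Myd88 the log2 fold change was 0.23 (SE 0.18, edgeR adjusted p = 0.456), and 0.36 without WT A. Traf6 (chromosome 2, 101678429 to 101701669, plus strand), the ligase that activates TAK1, was at 19.5, 13.9, 18.4, 30.6 and 25.5 CPM in WT tumors A to E. In KO tumors it was at 22.3, 25.5 and 28.7 CPM (lowest, median, highest). WT A, B and C were thus below every KO tumor, whereas WT D was above them all. The log2 fold change of Traf6 was 0.24 (SE 0.19, edgeR adjusted p = 0.463), and it was -0.01 with ribosomal RNA content as a covariate, 0.12 without WT B and 0.40 without WT D.

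The other 2 brakes were also measured. Tollip (chromosome 7, 141874813 to 141918507, minus strand), which binds IRAK1 at rest, was at 53.3, 38.9, 58.4, 56.1 and 65.1 CPM in WT tumors A to E. Its levels in KO tumors were 63.9, 74.3 and 91.8 CPM (lowest, median, highest). All KO tumors but KO B were above the highest WT tumor, WT E. The log2 fold change of 0.46 (SE 0.16, unadjusted p = 0.0117) did not pass after adjustment (edgeR adjusted p = 0.119), and over the 19 other settings it ranged from 0.32 to 0.54 with adjusted p between 0.0531 and 0.594. Tnfaip3 (chromosome 10, 19000910 to 19015657, minus strand) was at 71.3, 26.5, 53.4, 84.7 and 69.9 CPM in WT tumors A to E, with the lowest value in the library richest in ribosomal RNA. It was at 64.0, 70.4 and 81.9 CPM (lowest, median, highest) in KO tumors, inside the WT range. Its log2 fold change was 0.23 (SE 0.23, edgeR adjusted p = 0.566), and it was -0.13 with ribosomal RNA content as a covariate, 0.04 without WT B and 0.38 without WT D.

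Of the 9 members other than Irak3, 7 had a positive and 2 a negative log2 fold change, with a median of 0.23 against -0.03 over all tested genes. Tlr4 and Tollip were the 2 with an unadjusted p under 0.05 in the direction of higher levels in KO, a level that 8.57% of all tested genes reached in this direction, and none did so in the direction of lower levels, which 15.5% of all tested genes did. With edgeR, 0 of the 9 passed an adjusted p of 0.05, a threshold that 0.0181% of all tested genes passed in either direction, and with DESeq2 also 0 of 9. DESeq2 called 3.21% of the genes it adjusted higher and 4.85% lower. Without WT D, Tlr4 was the 1 member called, where 1.21% of tested genes were called higher and 3.87% lower. Without WT E, 0 of the 9 were called, where 3.63% were called higher and 7.46% lower.

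**Figure D2:**
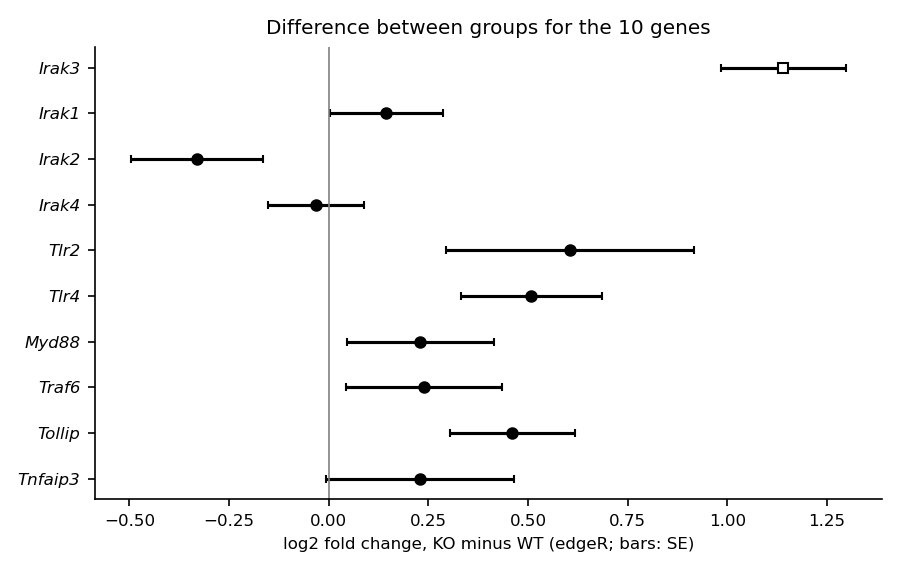
The log2 fold change of KO over WT (x axis, edgeR) of the 10 genes, with bars for the SE (KO n = 6, WT n = 5); the open square marks Irak3, which was chosen by this contrast. Irak3 stands at 1.14, and the other 9 genes lie between -0.33 (Irak2) and 0.60 (Tlr2).

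Scaled to exon length, Irak3 was one of the lower transcripts of the chain in both groups. On the scale of mean CPM per kilobase of exon, the order in KO tumors was Myd88 (32.0), Irak1 (24.1), Tollip (14.8), Tlr2 (13.2), Irak2 (11.2), Tnfaip3 (9.93), Irak4 (7.65), Irak3 (6.28), Tlr4 (5.31) and Traf6 (3.24). Ranges over the 6 tumors separated Irak1 from Tollip, Tnfaip3 from Irak4, Irak4 from Irak3, and Tlr4 from Traf6, and the other neighbors overlapped. In WT tumors the order was Myd88 (27.3), Irak1 (21.8), Irak2 (14.1), Tollip (10.7), Tlr2 (8.66), Tnfaip3 (8.46), Irak4 (7.82), Tlr4 (3.74), Irak3 (2.85) and Traf6 (2.74). Here only Irak1 and Irak2, and Irak4 and Tlr4, were separated by their ranges. Irak3 thus lay below Irak4 in both groups, and above Traf6 without overlap in the KO tumors. WT A, B and C differed from the other libraries in how levels went with exon length, which division by length does not remove. The part of this in the WT order, and in its differences from the KO order, was not tested.

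The bulk samples contain many cell types, and fewer cells of a type cannot be told apart from less RNA per cell. Irak3 is a gene of myeloid cells, and several sums of cell type markers had different means in the groups. None of the lists had a marker at 0 in all tumors. The summed level of 12 macrophage and monocyte markers was 3709 to 6537 CPM in KO and 3252 to 6292 CPM in WT tumors, and 4 of the 12 were higher at an unadjusted p under 0.05. The sum of 10 neutrophil markers was 302 to 3525 CPM in KO and 164 to 1109 CPM in WT tumors. All 10 had a positive log2 fold change, 8 of them at this level. The sum of 6 B cell markers was 55.2 to 133 CPM in KO and 14.9 to 50.2 CPM in WT tumors, without overlap of the groups. All 6 were higher at this level. Carcinoma epithelial markers summed to 2657 to 5442 CPM in KO and 3086 to 9254 CPM in WT tumors. All 6 had a negative log2 fold change, 3 of them at this level. Of the dendritic cell, T cell, fibroblast and endothelial markers 0 reached this level in either direction, and of 3 acinar markers tested 1 did, being lower. Over all tested genes, 8.57% reached this level higher in KO and 15.5% lower. The smallest edgeR adjusted p among all markers was 0.0607. The part of these cells in the difference of Irak3 was not tested.

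The ratio of Irak3 to myeloid markers depended on the marker. Per 1000 CPM of the summed macrophage and monocyte markers, Irak3 stood at 4.99 ± 1.24 CPM in KO tumors against 2.54 ± 0.945 CPM in WT, and 5 of 6 KO tumors were above the highest WT tumor. A few abundant genes carry this sum, so each marker was also used by itself, a choice made after seeing the data. The mean ratio was higher in KO for 11 of the 12 markers, and the KO mean was between 0.598 and 2.42 times the WT mean. The groups were fully separated for 1 of the 12, Lyz2, which encodes lysozyme. Against Csf1r, a receptor on which macrophages depend, the ratios overlapped, at 75.2 ± 16.8 CPM of Irak3 per 1000 CPM in KO tumors against 65.7 ± 29.2 CPM in WT. Against Ly6c2, a marker of inflammatory monocytes, the ratio was lower in KO, at 661 ± 270 and 1106 ± 418 CPM per 1000 CPM. Against the 10 neutrophil markers the mean ratio was higher in KO for 2 and fully separated for 0.

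**Figure D3:**
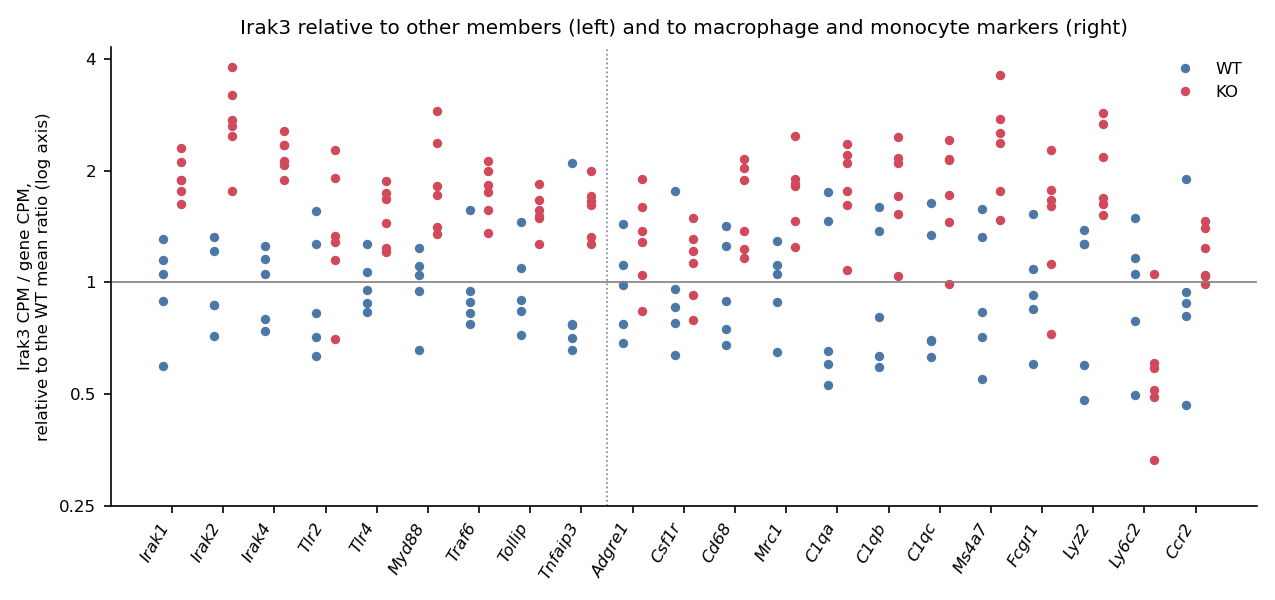
Irak3 CPM divided by the CPM of another gene in the same tumor, relative to the mean ratio of the WT tumors (y axis, log scale), for the 9 other members and 12 macrophage and monocyte markers (x axis); each point is a WT (blue) or KO (red) tumor. All 6 KO tumors lie above the WT tumors for Irak1, Irak2, Irak4, Myd88 and Lyz2, and the groups overlap for the other genes.

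The wider pathway was covered by 98 further genes in 8 lists, of which 95 passed the filter on low counts. Over these 95 genes, 16 had an unadjusted p under 0.05 in the direction of higher levels in KO and 3 in that of lower levels, against 8.57% and 15.5% of all tested genes. Their median log2 fold change was 0.15, against -0.03 over all tested genes. With edgeR none passed after adjustment. DESeq2 called 5 of the listed genes higher (Tlr1, Cd180, Il1rl1, Tab3 and Lcn2) and 1 lower (Nfkbiz), where it called 3.21% of all genes it adjusted higher and 4.85% lower. Without WT E, edgeR called 5 higher (Tlr1, Tlr5, Tlr13, Tab3 and Lcn2) and 0 lower, where 3.63% of all tested genes were called higher and 7.46% lower. Without WT D it called Cd180 and Tab3 higher and Csf2 lower, where the shares over all tested genes were 1.21% and 3.87%. These few calls are given as a description, and nothing is read from them about the lists. In 2 of the 95 genes, Tab3 and Tlr9, each KO tumor was above each WT tumor, against 1.59% of all tested genes, and Tlr9 and Tlr5 were named after their values were seen. Tlr9, an endosomal receptor for DNA, was at 0.998, 0.417, 0.442, 6.85 and 7.06 CPM in WT tumors A to E, and at 7.07, 8.09 and 20.8 CPM (lowest, median, highest) in KO tumors. WT A, B and C were far below the rest, while WT D and E lay next to the lowest KO tumor. Tlr5 was low, at 0.608, 0.668, 0.344, 0.744 and 3.01 CPM in WT tumors A to E and between 1.47 and 2.89 CPM in KO tumors. WT E was thus above every KO tumor, and the fit that called Tlr5 left WT E out.

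TLRs and their co-receptors had the highest median of the 8 lists, 0.70, with 13 of 15 positive. Of the 15, 7 had an unadjusted p under 0.05, all higher in KO, against 8.57% of all tested genes in this direction. With ribosomal RNA content as a covariate, 4 wider pathway genes reached this level higher in KO, against 16 without it. The part of RNA quality in the median of this list was not tested. Cd180, a TLR4 homolog best known from B cells, was at 12.6, 7.43, 7.03, 19.2 and 9.69 CPM in WT tumors A to E. It was at 13.3, 21.8 and 42.8 CPM (lowest, median, highest) in KO tumors, of which 4 were above all WT tumors. Its log2 fold change was 1.21 (SE 0.36, edgeR adjusted p = 0.0997). Tlr1, a partner of TLR2, had an estimate of 0.64 on the log2 scale (SE 0.20, edgeR adjusted p = 0.107), with 5 of 6 KO tumors above all WT tumors. Tlr13, an endosomal receptor for bacterial RNA, was at 17.7, 11.8, 10.9, 23.2 and 24.1 CPM in WT tumors A to E and between 20.9 and 42.7 CPM in KO tumors, with WT D and E inside the KO range. The log2 fold changes of Tlr13 (0.79, SE 0.26) and of Unc93b1, which carries nucleic acid-sensing TLRs to endosomes (0.64, SE 0.21), had edgeR adjusted p of 0.113 and 0.115. Cd14, the co-receptor of TLR4 and the most abundant of the list per length, went the other way without passing, at 129 ± 23.0 CPM in KO tumors against 158 ± 47.5 CPM in WT. Its levels were 186, 122, 228, 119 and 136 CPM in WT tumors A to E and between 93.8 and 151 CPM in KO tumors. WT A and C were above the KO range, and the other WT tumors lay inside it.

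On the IL-1 side, receptors and ligands had medians of opposite sign. Of the 8 receptors and decoys 7 were positive, with a median of 0.32, and 1 had an unadjusted p under 0.05. This was Il1rl1, the IL-33 receptor, with 6.75 ± 2.39 CPM in the KO tumors against 3.82 ± 1.02 CPM in the WT tumors (log2 fold change 0.82, SE 0.28, edgeR adjusted p = 0.123). Sigirr, an inhibitory receptor of the family and its most abundant per length, was at 48.3 ± 13.9 and 60.01 ± 17.6 CPM. Of the 7 ligands and antagonists tested, 5 were negative and the median was -0.52, against -0.03 over all tested genes. Il18, an interferon-gamma-inducing cytokine, was at 8.80 ± 1.16 CPM in KO tumors against 12.7 ± 2.84 CPM in WT (log2 fold change -0.52, SE 0.19, unadjusted p = 0.0185, edgeR adjusted p = 0.137). Il1b, the main secreted IL-1 and the most abundant ligand per length, was at 199, 187, 49.3, 29.1 and 89.9 CPM in WT tumors A to E and between 21.7 and 137 CPM in KO tumors. The groups overlapped widely for Il1b, and the log2 fold change was -0.77 (SE 0.54, edgeR adjusted p = 0.392). In WT A and B, Il1a was at 21.1 and 13.2 CPM and Il1rn at 202 and 119 CPM. Il1a, Il1b and Il1rn were highest in these libraries, and the other tested genes of the list were not. The part of RNA quality in the negative median was not tested.

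Downstream of the receptors, the medians of the lists lay nearer to 0. Adaptors and TRAF6 partners had a median of 0.26, and 3 of 11 had an unadjusted p under 0.05. These were the pellino ligase gene Peli3 (log2 fold change 0.97, SE 0.34), Pik3ap1, which encodes an adaptor linking TLRs to phosphoinositide 3-kinase (1.14, SE 0.46), and Ticam2, the TRAM adaptor of TLR4 (0.70, SE 0.28), with edgeR adjusted p between 0.127 and 0.165. Pik3ap1 was at 41.2, 15.1, 10.5, 69.2 and 69.3 CPM in WT tumors A to E and between 54.4 and 127 CPM in KO tumors. WT D and E lay inside the KO range, and with ribosomal RNA content as a covariate the log2 fold change of Pik3ap1 was 0.53 (edgeR adjusted p = 0.757). Peli3 was low, at 0.781, 0.501, 0.491, 1.10 and 1.03 CPM in WT tumors A to E and between 0.983 and 2.20 CPM in KO tumors. Ticam2 was at 4.08, 2.42, 1.62, 3.02 and 3.58 CPM in WT tumors A to E and between 3.72 and 7.09 CPM in KO tumors. It was lowest in WT C and B, and WT A lay inside the KO range. Ube2n, which encodes the ubiquitin-conjugating enzyme that works with TRAF6, was at 98.8 ± 7.89 and 104 ± 30.4 CPM.

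In the TAK1 and IKK complexes the median was 0.16, and 2 of 10 had an unadjusted p under 0.05. Tab3, which tethers TAK1 to ubiquitin chains, was at 6.47, 7.93, 9.78, 15.9 and 15.2 CPM in WT tumors A to E. It was at 16.8, 19.4 and 21.5 CPM (lowest, median, highest) in KO tumors. WT A, B and C were lowest for Tab3 and WT D was within 1 CPM of the lowest KO tumor. Its log2 fold change was 0.81 (SE 0.24, edgeR adjusted p = 0.0991) and fell to 0.50 without WT A and B (adjusted p = 0.282). Tbk1, a kinase of the interferon branch, had an estimate of 0.38 on the log2 scale (SE 0.17, edgeR adjusted p = 0.198). Tab2, the most abundant of the list per length, was at 123 ± 6.40 CPM in KO tumors against 95.9 ± 27.2 CPM in WT. None of the 9 NF-kappaB and IRF factors reached an unadjusted p of 0.05, and Rela, the most abundant, was at 146 ± 15.9 and 162 ± 27.3 CPM.

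The other negative regulators were mixed, with 9 of 19 positive and a median of -0.05. Nfkbiz, which encodes the nuclear regulator IkappaB-zeta and is itself induced by TLR and IL-1 signals, stood at 47.6 ± 8.96 CPM in KO against 74.1 ± 17.1 CPM in WT tumors (log2 fold change -0.64, SE 0.18, unadjusted p = 0.00387, edgeR adjusted p = 0.0956). Cyld, a deubiquitinase that opposes TRAF6, had an estimate of 0.44 on the log2 scale (SE 0.20, edgeR adjusted p = 0.204). Nfkbia, encoding the classical NF-kappaB inhibitor and the most abundant of the list per length, was at 121 ± 22.8 CPM in KO tumors against 147 ± 47.3 CPM in WT. It was at 212, 122, 177, 127 and 94.5 CPM in WT tumors A to E and between 91.8 and 154 CPM in KO tumors. WT A and C were above the KO range, and the other WT tumors lay inside it.

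Of the inflammatory target genes 6 of 16 were positive, with a median of -0.24. Lcn2, which encodes the iron-sequestering protein lipocalin 2 of neutrophils and epithelia, was at 42.2, 63.2, 104, 34.2 and 75.5 CPM in WT tumors A to E. It was at 87.3, 201 and 261 CPM (lowest, median, highest) in KO tumors, with only WT C inside the KO range. Its log2 fold change was 1.499 (SE 0.36, edgeR adjusted p = 0.0847), beside the neutrophil markers given above. Icam1, the leukocyte adhesion molecule, had an estimate of 0.86 on the log2 scale (SE 0.38, edgeR adjusted p = 0.193). Csf2, which encodes the growth factor GM-CSF, was at 9.33, 13.3, 4.32, 0.94 and 3.55 CPM in WT tumors A to E and between 1.17 and 3.23 CPM in KO tumors. Csf2 was highest in WT A and B, its log2 fold change of -1.30 (SE 0.52) did not pass (edgeR adjusted p = 0.157), and it was -0.22 without these libraries. Saa3, an acute-phase gene and the most abundant target per length, was at 190 ± 130 CPM in KO tumors against 265 ± 262 CPM in WT. It was at 322, 691, 135, 12.8 and 164 CPM in WT tumors A to E and between 69.7 and 386 CPM in KO tumors. WT B was above the KO range and WT D below it.

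**Figure D4:**
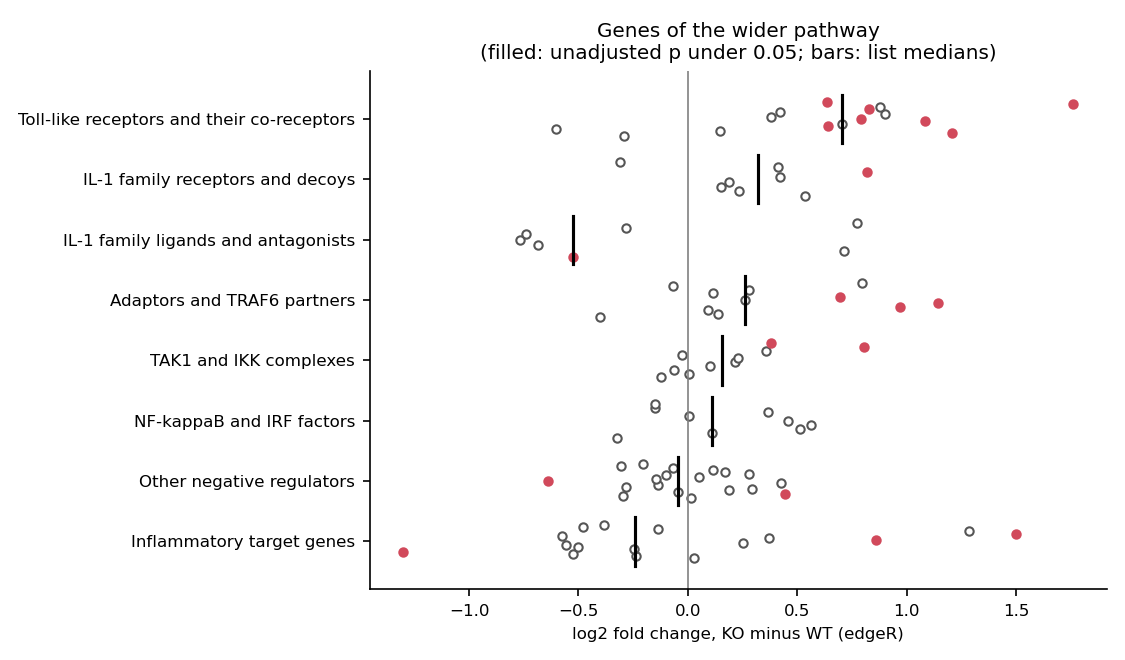
The log2 fold change of KO over WT (x axis, edgeR) of the 95 tested genes in 8 lists of the wider pathway (y axis), 1 point per gene; filled points had an unadjusted p under 0.05, and vertical bars are list medians. TLRs and their co-receptors have 13 of 15 positive values (median 0.70), and IL-1 family ligands have a negative median (-0.52).

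The 5 genes whose profile over the 11 tumors was nearest to that of Irak3 were not members of the chain. Irak3 was chosen for its rise in KO tumors, so genes near to it share that rise by construction. The other 9 members were a small part of the genes compared, so nothing is read from their absence among the nearest. Likeness was the root mean square difference of log2(CPM + 1) values centered on each gene's mean, over 14898 genes with a mean of at least 1 CPM. The 5 nearest were Gm14548 (0.239), Nrg2 (0.252), Mid1-ps1 (0.256), Gm37416 (0.261) and Rcsd1 (0.264). The first 4 were low, with means of at most 2.60 CPM in KO tumors and of 0.736, 0.893, 0.459 and 0.531 CPM in WT tumors. They reached the mean of 1 CPM only through the KO tumors, where they were higher. Rcsd1 was at 31.0 ± 7.37 CPM in KO tumors against 17.0 ± 3.08 CPM in WT. Mid1-ps1 is annotated on chromosome Y and had 1 to 48 counts per tumor. The hosts were female, and the study states that the implanted line came from a female mouse. Where the reads of Mid1-ps1 come from was not tested. Of the other members, Tlr4 was nearest (0.357, rank 129), followed by Tollip (0.396, rank 337) and Traf6 (0.485, rank 1874), and Irak2 was farthest (0.767, rank 10085). The points of each profile share the 2 groups and the libraries, so the ranking is a description.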

How the data were processed

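RNA was extracted from whole tumors, and libraries were made with a directional kit. Per the labels and the study's methods, the authors trimmed paired-end reads with Trimmomatic, aligned them to GRCm38/mm10 with HISAT2 (version 2.1.0) and counted uniquely aligned reads over exons with HTSeq (version 0.11.2). They deposited raw counts per gene, used for all tests, and a normalized signal, equal to each count divided by 1 factor per sample (0.514 to 1.42), used as an alternative for levels. Of 54232 identifiers, 54165 matched a GENCODE M21 symbol.

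Members and gene lists were chosen with earlier results of these data known. Counts were tested with the edgeR quasi-likelihood test (version 4.0.16, R 4.3.3, TMM scaling, filterByExpr) without covariates, with Benjamini-Hochberg adjustment over all 16536 tested genes. CPM used TMM-scaled library totals. Named were all members and, per list, up to 4 genes with the smallest unadjusted p under 0.05, the most abundant gene per length, and the 5 nearest to Irak3. Nothing in the labels says how the letters were given, but each tumor came from its own host. The alternatives were DESeq2 (version 1.42.0), RLE scaling, other filters, ribosomal RNA and gene length corrections, left-out tumors and a replicate block. In simulated counts for 16316 genes, edgeR recovered 33 of 99 genes changed by a log2 fold change of 1 and 87 of 98 changed by 2, with 5 false calls. DESeq2, over 16534 genes, recovered 42 of 100 and 90 of 100, with 31 false calls. The simulated counts varied independently between genes and held none of the ribosomal RNA and gene length differences of WT A, B and C. These numbers therefore check the fits and do not give the recovery or false calls in the real data.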

Additional observations from a re-analysis of the deposited data

Results flagged for a closer look

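In 12 of 86 groups of tumors examined, the highest or lowest tumor lay further from the others than a Dixon test at the 95% level allows, where chance gives about 4.3. Among the members, Irak1 was at 95.4 CPM in KO E against 112 to 122 CPM in the other KO tumors. Myd88 was at 95.0 CPM in WT A against 57.9 to 67.9 CPM in the other WT tumors.

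In the wider pathway, KO F stood apart for 3 genes. Unc93b1 was at 330 CPM there against 152 to 218 CPM in the other KO tumors, Ticam2 at 7.09 CPM against 3.72 to 4.71 CPM, and Csf2 at 1.17 CPM against 2.47 to 3.23 CPM. Il1rl1 was at 11.3 CPM in KO C against 5.08 to 7.17 CPM, and Sigirr at 75.6 CPM in KO A against 39.4 to 49.6 CPM.

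Of the marker sums, neutrophil markers reached 1109 CPM in WT B against 164 to 323 CPM in the other WT tumors, B cell markers 50.2 CPM in WT E against 14.9 to 23.2 CPM, and T cell markers 418 CPM in WT A against 144 to 223 CPM. Acinar markers reached 574 CPM in KO E against 7.25 to 13.5 CPM in the other KO tumors, and 1523 CPM in WT E against 12.8 to 169.7 CPM in the other WT tumors.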

How the results depend on the processing

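Irak3 kept its direction in all 19 alternative settings. For the other 9 members, the number higher in KO at an unadjusted p under 0.05 was 2, with 0 under the ribosomal RNA covariate, 1 with WT A and B both left out, and 2 to 4 when 1 tumor was left out. The number lower was 0, with 1 under the gene length correction and 0 to 1 when 1 tumor was left out. The number higher after adjustment was 0, and 0 to 1 when 1 tumor was left out (Tlr4 without WT D). Of the 95 wider pathway genes, 16 were higher at an unadjusted p under 0.05, with 4 under the ribosomal RNA covariate and 9 to 20 when 1 tumor was left out (9 without KO F, 10 without WT B). For those lower the number was 3, with 1 under the gene length correction and 2 to 7 when 1 tumor was left out (7 without KO C or WT D, 5 without KO A or WT E). After adjustment, 0 were higher, against 5 with DESeq2 and 0 to 5 when 1 tumor was left out, and 0 were lower, against 1 with DESeq2 and 0 to 1. Some signs changed near 0: the log2 fold change of Irak4 was 0.0177 without an expression filter and -0.0615 to 0.0139 when 1 tumor was left out (positive without WT A), and under the ribosomal RNA covariate that of Traf6 was -0.0108 and that of Tnfaip3 -0.13. Of the 5 genes nearest to Irak3, 3 remained with a pseudocount of 0.5. The cause of these changes was not tested, except that leaving out tumors lowers the number of samples.

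Replicate letters up to E are shared by the groups. Deviations of same-lettered tumors correlated at 0.12, 0.07, -0.14, 0.10 and 0.03, and 1 of 10 tumors correlated best with its own letter, so the letters were not taken to pair the tumors. With a replicate block on the letter and KO F left out, 10 wider pathway genes were higher and 3 lower at an unadjusted p under 0.05, against 9 higher without KO F and without the block, and the log2 fold change of Irak3 was 1.16.

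Depth was not limiting for the 10 members, whose counts were at least 135 in every tumor, but Il36a, Il36b and Sarm1 had too few counts to be tested.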
